A study of Rattus norvegicus with 17 samples.

Results

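The genes described here belong to antigen presentation by the major histocompatibility complex (MHC). They were 5 of the 26402 genes in the table, picked by Ensembl identifier: Cd74 (ENSRNOG00000018735), RT1-Da (ENSRNOG00000032844), RT1-Ba (ENSRNOG00000000451), RT1-Bb (ENSRNOG00000032708) and B2m (ENSRNOG00000017123). The table holds identifiers only, so the names are those given with the selection and could not be checked against it. MHC class II molecules are pairs of an alpha and a beta chain that show peptides from engulfed protein to helper T cells, and class I molecules show peptides from inside the cell to killer T cells. In healthy brain tissue class II is found mainly in microglia and in macrophages of the brain borders, at low levels, while class I light chain is made by many cell types.

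RNA was sequenced from CA1/CA2 tissue, dissected from the left hippocampus of male Fischer-344 rats aged 12 months right after the last maze trial. Rats of the ENZ group were injected under the skin once a day for 3 days with Enzastaurin, a Protein Kinase C-β inhibitor, at 25 mg/kg in polyethylene glycol, and rats of the vehicle group with polyethylene glycol alone. All animals of both groups were trained and tested in the Morris maze on those days, so there was no untrained group. The labels name 17 rats, 10 with vehicle and 7 with ENZ, and rats are called here by their label, with G1 for vehicle and G2 for ENZ. Values are normalized counts, which are reads per gene divided by a size factor for each rat.

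One library stood apart before any gene was compared. Vehicle rat G1_80 had 33422 reads on genes, against 2716777 to 20731523 in the other 16 rats, and a single read in it was worth 103.4 normalized counts. It held 0 reads of Cd74, RT1-Da, RT1-Ba and RT1-Bb, which at this depth allows a level of up to 310.1 normalized counts (3 reads). At the median rate of the other rats the library would hold 0.488 reads of Cd74 and fewer of the other class II genes, so their level could not be measured in that rat. B2m had 5 reads there. They make 516.8 normalized counts (exact Poisson 95% interval 167.8 to 1206, counting error only), which does not reach the lowest of the other rats (1286). As a share of the library they make 149.6 RPM (Wilson 95% interval 63.9 to 350.2, counting error only). That interval reaches over the 250.1 to 334.3 RPM of the other rats. All normalized counts of G1_80 add up to 3.45e+06, against 5.08e+06 to 5.60e+06 in the other rats, so the scales differ there. Main values below are for the 16 rats without G1_80 (9 vehicle, 7 ENZ), and values with it follow.

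ENZ and vehicle rats had overlapping levels of all 5 genes, and none passed the test. By limma on log2(normalized count + 1) with Benjamini-Hochberg adjustment over all genes tested, 0 of 13853 genes passed an adjusted p of 0.05 (0%), and the adjusted p of each of the 5 genes was 0.999788. At an unadjusted p under 0.05 there were 0 of the 5 genes, where 324 of all genes (2.34%) were found by limma, 338 (2.44%) by edgeR and 241 (1.74%) by DESeq2. The median log2 fold change of the 5 genes was -0.028, beside -0.0043 for all genes tested. In bulk tissue, fewer cells of a type and less RNA per cell cannot be told apart.

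Cd74 encodes the invariant chain, which holds the class II groove closed until the molecule reaches the endosome. Its normalized count in the vehicle group ran from 50.9 (rat G1_143) through a median of 77.1 to 85.5 (rat G1_98). In the ENZ group it ran from 47.0 (rat G2_152) through a median of 74.3 to 85.5 (rat G2_125). The groups covered nearly the same range, with the lowest of the 16 rats in the ENZ group and the highest rat of each group level at 85.5. Means were 70.99 ± 13.001 (SD, n = 7) with ENZ and 72.2 ± 12.2 (SD, n = 9) with vehicle. The log2 fold change of Cd74 was -0.028 (standard error 0.13, 95% confidence interval -0.30 to 0.24), and the two-sided exact permutation test over 11440 splits gave p = 0.830. On the fold scale that interval runs from 0.814 to 1.18. The sign of the change was not stable, since fits without 1 rat gave -0.088 (without rat G1_143) to 0.066 (without rat G2_152). Reads behind Cd74 were 36 to 309 per rat.

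RT1-Da encodes the alpha chain of the rat RT1-D class II molecule, the counterpart of human HLA-DR. Its normalized count in the vehicle group was 7.82 at the lowest (rat G1_134), 10.8 at the median and 22.05 at the highest (rat G1_98). In the ENZ group it was 9.72 at the lowest (rat G2_71), 13.1 at the median and 21.2 at the highest (rat G2_62). All ENZ rats lay within the range of the vehicle rats. The log2 fold change of RT1-Da was 0.13 (standard error 0.22, 95% confidence interval -0.33 to 0.58, two-sided exact permutation p = 0.568), from means of 13.96 ± 4.40 (SD, n = 7) with ENZ and 12.9 ± 4.85 (SD, n = 9) with vehicle. Without ENZ rat G2_62 it was 0.024 and without vehicle rat G1_98 0.23, and it was 0.034 by edgeR and 0.037 by DESeq2. Reads behind RT1-Da were 4 to 49 per rat.

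RT1-Ba and RT1-Bb encode the alpha and the beta chain of the RT1-B class II molecule, the counterpart of human HLA-DQ. RT1-Ba in the vehicle group ran from 2.18 (rat G1_143) through a median of 11.7 to 20.2 (rat G1_8) normalized counts. In the ENZ group it ran from 7.83 (rat G2_152) through a median of 12.5 to 14.4 (rat G2_26). Both extremes of RT1-Ba were thus vehicle rats, and its SD was 5.05 with vehicle (mean 11.8, n = 9) and 2.17 with ENZ (mean 12.2, n = 7), a difference in spread that was not tested. The log2 fold change of RT1-Ba was 0.18 (standard error 0.29, 95% confidence interval -0.42 to 0.78, two-sided exact permutation p = 0.704). Without rat G1_143, which had 3 reads of RT1-Ba, it was -0.056, and without rat G1_8 it was 0.29. The same change was 0.040 by edgeR and 0.045 by DESeq2.

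RT1-Bb had the log2 fold change farthest from 0 among the 5 genes over the 16 rats, still within the spread between rats. Over all 17 rats its log2 fold change was the nearest to 0. Its normalized count in the vehicle group was 5.52 at the lowest (rat G1_107), 9.91 at the median and 15.0 at the highest (rat G1_53). In the ENZ group it was 4.12 at the lowest (rat G2_125), 6.02 at the median and 13.6 at the highest (rat G2_161). Of the 7 ENZ rats, 2 were below every vehicle rat and 1, rat G2_161, was above the vehicle median. Means were 7.21 ± 3.13 (SD, n = 7) with ENZ and 9.59 ± 2.91 (SD, n = 9) with vehicle. The log2 fold change of RT1-Bb was -0.39 (standard error 0.23, 95% confidence interval -0.87 to 0.086, two-sided exact permutation p = 0.104, lower in 6 of 7 ENZ rats than the vehicle median). In 14 of the 16 fits that left out a single rat the interval included 0, and the change nearest to 0 was -0.29 (-0.77 to 0.19, without ENZ rat G2_125). In the other 2 it did not include 0. Without ENZ rat G2_161 the log2 fold change was -0.54 (95% confidence interval -0.99 to -0.096, limma p = 0.020 unadjusted and 0.999906 adjusted). Without vehicle rat G1_107 it was -0.47 (-0.95 to -0.0014, limma p = 0.0494 unadjusted and 0.999563 adjusted). For comparison, the 5th and 95th percentiles over all genes by limma were -0.24 and 0.18. Genes of a mean like that of RT1-Bb vary more than most from rat to rat. By edgeR the log2 fold change of RT1-Bb over the 16 rats was -0.49 (p = 0.0587 unadjusted and 0.999926 adjusted). By DESeq2 it was -0.50 (p = 0.0899 unadjusted and 0.999524 adjusted). Reads behind RT1-Bb were 4 to 45 per rat, and 4 to 13 in the ENZ group. These read numbers are not corrected for depth, which differed between the groups. The median was 5182015 reads on genes in the ENZ rats and 8710997 in the 9 vehicle rats. RT1-Ba, whose product pairs with that of RT1-Bb, had a fold change of the opposite sign over the 16 rats and of the same sign without rat G1_143 (-0.056 and -0.47), and the difference between them was not tested.

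B2m encodes beta-2 microglobulin, the light chain that class I heavy chains need to reach the cell surface, and it has no part in class II. Its normalized count in the vehicle group ran from 1286 (rat G1_53) through a median of 1553 to 1804 (rat G1_98). In the ENZ group it ran from 1300 (rat G2_62) through a median of 1534 to 1736 (rat G2_152). All ENZ rats lay within the vehicle range. The log2 fold change of B2m was -0.035 (standard error 0.075, 95% confidence interval -0.19 to 0.12, two-sided exact permutation p = 0.649), from means of 1523 ± 156.9 (SD, n = 7) with ENZ and 1561 ± 170.1 (SD, n = 9) with vehicle. B2m had 861 to 5779 reads per rat, and its interval on the fold scale, 0.876 to 1.09, was the narrowest of the 5 genes.

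**Figure D1:**
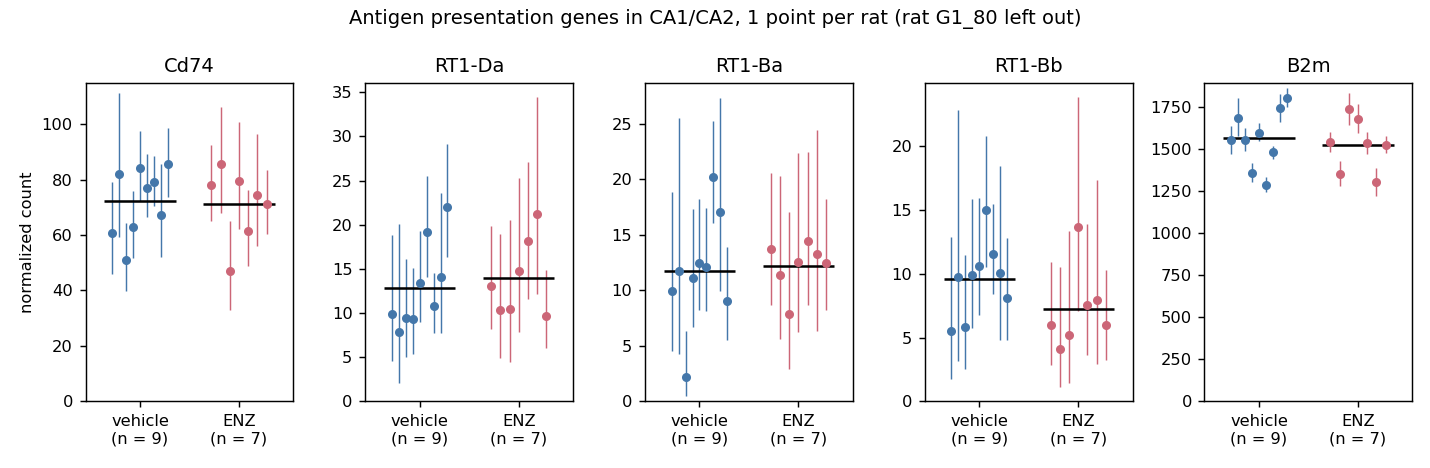
Normalized count (linear axes from 0, a separate scale for each gene) of the 5 genes in each of the 9 vehicle and 7 ENZ rats, without rat G1_80. Points are rats, vertical bars are exact Poisson 95% intervals for the counting of reads, and horizontal lines are group means. The groups overlap in each panel, and in RT1-Bb 2 of the ENZ rats lie below every vehicle rat.

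Including rat G1_80 turned the sign of 2 of these differences and widened every interval. Over all 17 rats the log2 fold change was 0.59 for Cd74 (95% confidence interval -0.94 to 2.12) and 0.12 for B2m (-0.29 to 0.54), both above 0. It was 0.50 for RT1-Da (-0.53 to 1.53), 0.53 for RT1-Ba (-0.53 to 1.59) and -0.057 for RT1-Bb (-1.001 to 0.89). By limma 0 of 13844 genes passed over all 17 rats (0%), with 38 (0.274%) and none of the 5 genes at an unadjusted p under 0.05. The two-sided exact permutation test over 19448 splits gave p = 0.689 for Cd74, 0.334 for RT1-Da, 0.414 for RT1-Ba, 0.853 for RT1-Bb and 0.795 for B2m. The median of the 5 genes moved from -0.028 to 0.50, and the median over all genes from -0.0043 to 0.16. What the added library brings for the 4 class II genes is a value of 0 from a depth that could not show them.

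**Figure D2:**
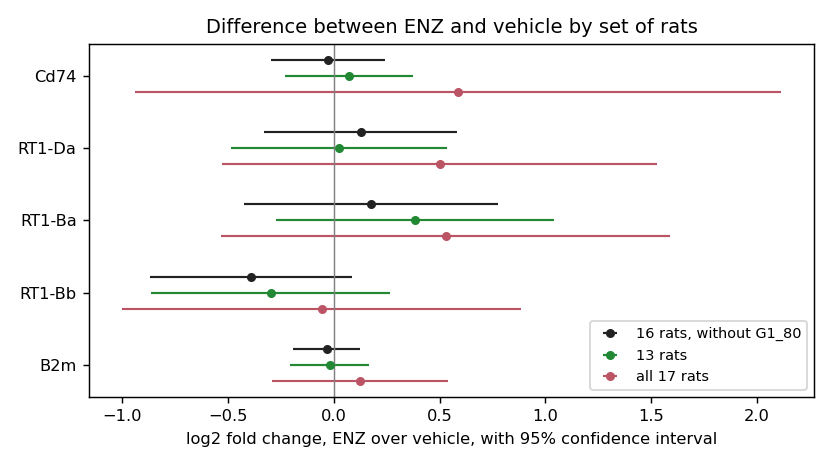
Log2 fold change of ENZ over vehicle (horizontal axis, with 95% confidence intervals by limma) for the 5 genes in 3 sets of rats: 16 rats without G1_80, 13 rats without G1_80, G1_44, G1_134 and G1_8, and all 17. Every interval includes 0, and for Cd74 the interval widens from between -0.30 and 0.24 to between -0.94 and 2.12 when rat G1_80 is added.

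The spread between animals was examined next, as the coefficient of variation (CV, SD divided by mean) of the normalized count over the 16 rats. It was 10.4% for B2m, 16.9% for Cd74, 33.0% for RT1-Ba, 34.0% for RT1-Da and 36.8% for RT1-Bb, beside a median of 13.8% over all genes tested. For the RT1 genes, the CV from counting of reads is set beside these values, and the cause of the spread was not tested. Counting of reads alone would give 26.6% for RT1-Ba, 25.2% for RT1-Da and 31.5% for RT1-Bb over the 16 rats. Within vehicle the CV was 42.9% for RT1-Ba, 37.7% for RT1-Da and 30.3% for RT1-Bb. Within ENZ it was 17.8%, 31.5% and 43.3% in that order. RT1-Ba within ENZ and RT1-Bb within vehicle were thus below the value from counting over the 16 rats. Taking the counting part out of the CV over the 16 rats, as a variance, left 19.4% for RT1-Ba, 22.8% for RT1-Da and 19.0% for RT1-Bb. It left 12.96% for Cd74 and 10.1% for B2m. Each remainder pools both groups, so any difference between the groups is part of it. For RT1-Ba and RT1-Bb this remainder rested on single rats. Without rat G1_143 the CV of RT1-Ba was 24.3%, below the 26.1% from counting alone in the rats left, so that 0% remained, and without rat G1_8 9.98% remained. Without rat G1_53 the remainder of RT1-Bb was 6.85%. Against genes of like mean (from 0.8 times the mean to the mean divided by 0.8), the CV of each of the 5 was at or somewhat above the middle, at percentile 68.1 for Cd74 (1441 genes), 67.5 for RT1-Da (724 genes), 56.1 for RT1-Ba (708 genes), 53.2 for RT1-Bb (654 genes) and 59.4 for B2m (298 genes). From the lowest to the highest rat the level rose 1.82-fold for Cd74, 2.82-fold for RT1-Da, 9.28-fold for RT1-Ba, 3.64-fold for RT1-Bb and 1.403-fold for B2m. The range of RT1-Ba was set by rat G1_143, and it was 2.59-fold without that rat.

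**Figure D3:**
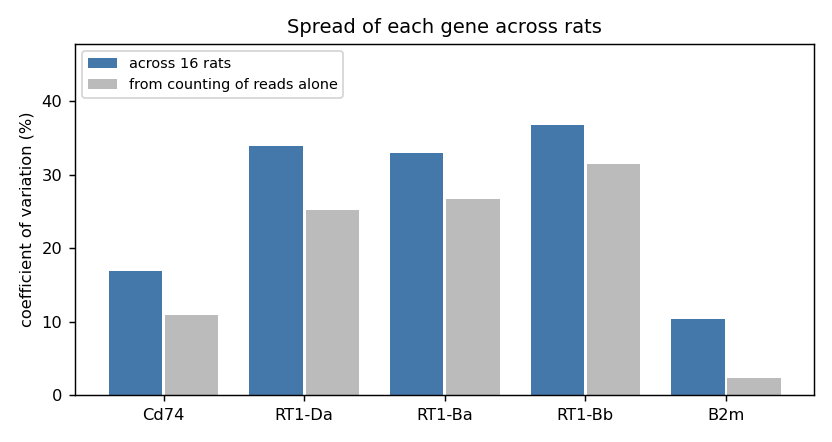
Coefficient of variation in percent of each gene across 16 rats (blue bars) and the part that counting of reads alone would give (grey bars), both from 0. For RT1-Bb the bars are 36.8% and 31.5%, and for B2m 10.4% and 2.34%.

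A few rats were low in several class II genes at once, and others were high in one and low in another. Vehicle rat G1_143 was the lowest of 16 in RT1-Ba, 2nd lowest in Cd74, 3rd lowest in RT1-Da and 4th lowest in RT1-Bb, while it was 10th from the lowest in B2m. ENZ rat G2_152 was lowest in Cd74, 2nd lowest in RT1-Ba and RT1-Bb and 7th lowest in RT1-Da, and it was 14th from the lowest in B2m. Vehicle rat G1_53 was highest in RT1-Bb and 14th from the lowest in RT1-Da, in the middle in Cd74 (rank 9) and RT1-Ba (rank 8), and the lowest of all in B2m. ENZ rat G2_125 was lowest in RT1-Bb and highest in Cd74, where vehicle rat G1_98 was level with it at 85.5. Rat G1_98 was highest in RT1-Da and 3rd lowest in RT1-Ba. Vehicle rat G1_134 was lowest in RT1-Da and 13th from the lowest in Cd74. Rat G1_143 had 7337860 reads, near the median depth. The 3 reads of RT1-Ba in it give 2.18 normalized counts with an exact Poisson 95% interval of 0.450 to 6.37 (counting error only), and the next lowest rat, G2_152, was at 7.83 (2.87 to 17.03), so the intervals overlap.

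Whether the genes varied together from rat to rat was tested over 10 pairs, on log2(normalized count + 1). The 6 pairs of class II genes had positive Pearson correlations, from r = 0.25 (RT1-Da and RT1-Ba) to r = 0.56 (Cd74 and RT1-Ba), and the 4 pairs with B2m had r between -0.13 and -0.037. None passed adjustment over the 10 pairs by a permutation test with 100000 resamples. For Cd74 and RT1-Ba, Pearson's r of 0.56 had a permutation p = 0.0292 (adjusted 0.292), and Spearman's rho was 0.19 (permutation p = 0.475, adjusted 0.679). For RT1-Da and RT1-Ba, r fell from 0.25 to 0.074 without rat G1_143. It was 0.35 without the 2 rats farthest from the median of RT1-Da (G1_98 and G2_62), 0.17 within vehicle and 0.57 within ENZ. The relation of Cd74 and RT1-Ba rested on single rats as well: without the 2 rats farthest from the median of Cd74 (G2_152 and G1_143) r was -0.076, and without rat G1_143 alone it was 0.33. Within groups r was 0.65 in vehicle (9 rats) and 0.64 in ENZ (7 rats), with exact permutation p = 0.0544 and 0.145, while rho was 0.32 and 0 (exact permutation p = 0.410 and 1). For RT1-Ba and RT1-Bb, the chains of the RT1-B pair, r was 0.40 (permutation p = 0.118, adjusted 0.468) and rho 0.46 (permutation p = 0.0778, adjusted 0.505). Without the 2 rats farthest from the median of RT1-Ba, this r was 0.33, and within groups it was 0.66 (vehicle) and 0.39 (ENZ). Its rho within vehicle was 0.82 (9 rats, exact permutation p = 0.0108, adjusted over the 10 pairs 0.108). With G1_80 included, all 10 pairs had r between 0.75 and 0.92, which rests on that library: Spearman's rho over the same 17 rats was between -0.017 and 0.55, with adjusted permutation p of 0.183 or higher.

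As a description of how close these relations are, all 13852 other genes tested were ranked by their r with each gene over the 16 rats. With RT1-Ba, Cd74 ranked 142, RT1-Bb 862 and RT1-Da 2582. With RT1-Bb, RT1-Ba ranked 521, Cd74 596 and RT1-Da 941. With Cd74, RT1-Ba ranked 490, RT1-Bb 1785 and RT1-Da 2839. With RT1-Da, RT1-Bb ranked 1491, Cd74 2144 and RT1-Ba 2800. No class II gene had another as its highest-ranked gene, and B2m ranked between 8146 and 9625 with each class II gene. The genes whose pattern was most like the mean of the 4 class II genes, out of 11670 with a median of at least 20 normalized counts, were ENSRNOG00000014399 (r = 0.77, 786.5 ± 57.9 (SD, n = 9) normalized counts in vehicle and 791.4 ± 57.3 (SD, n = 7) in ENZ) and ENSRNOG00000004941 (r = 0.76, 161.6 ± 13.7 and 162.8 ± 12.0). Neither identifier was paired with a name, and the highest of so many correlations over 16 rats is given as a description only.

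Depth and blood were set beside the genes. Against log10 reads on genes over the 16 rats, the 5 genes had r from -0.17 (B2m) to 0.27 (RT1-Bb) and rho from -0.23 to 0.36, with permutation p of 0.174 or higher and adjusted values over the 5 genes of 0.540 or higher. Hba2 (ENSRNOG00000047321) is an alpha-globin gene of red cells whose identifier the study pairs with its name. The study lists Hba2 among its genes of smallest uncorrected p between the groups, none significant after correction. It ran from 191.3 through a median of 371.4 to 799.8 normalized counts in vehicle (highest in rat G1_44). In ENZ it ran from 251.7 through a median of 283.1 to 379.5. Its r with the 5 genes was between -0.11 and 0.17 and its rho between -0.22 and 0.30, with permutation p of 0.252 or higher and adjusted values of 0.740 or higher. Without the 2 rats farthest from the median, r was between -0.26 and 0.28 for depth and between -0.0091 and 0.29 for Hba2. Within the 9 vehicle rats r with depth was between -0.37 and 0.51, and within the 7 ENZ rats between -0.37 and 0.41. With Hba2 it was between -0.047 and 0.26 within vehicle and between -0.42 and 0.18 within ENZ. Hba2 was the 1 gene of the fixed lists of cell type markers with a paired identifier. Markers of microglia, macrophages, lymphocytes, choroid plexus and pyramidal neurons, and the other genes of the class I and class II pathways, were not analysed here, so the labelled tissue was not checked against its markers.

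The genes share features of sequence that the selection did not use. In the RefSeq annotation of assembly GRCr8, RT1-Ba and RT1-Bb are neighbours on chromosome 20 with 0 protein-coding genes between them, and RT1-Da lies 2 protein-coding genes away from RT1-Ba (RT1-Db2 and RT1-Db1). Class II genes, Cd74 and B2m are known for an upstream module of an X box, bound by the RFX complex, and a Y box, an inverted CCAAT sequence bound by NF-Y, on which the coactivators CIITA (class II) or NLRC5 (class I) assemble. Promoter windows of 250 bases before to 50 bases after the annotated start were searched on both strands for ATTGG (the core of the Y box, CCAAT on the other strand), for the longer CTGATTGG that contains it, for CTAGNAAC (letters within some X boxes) and for TGACG. These letters were chosen after the sequences were seen. ATTGG was found in 5 of 5 windows, beside 37.5% of 33469 promoters. CTGATTGG was found in 3 of 5 (RT1-Da, RT1-Ba and RT1-Bb), beside 3.5% of all promoters. CTAGNAAC was found in Cd74 and RT1-Da, beside 3.59%, and TGACG in RT1-Ba and B2m, beside 21.2%. A match is a description of the letters and not a bound site.

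The stretch around the ATTGG nearest to the start is printed for each gene, 45 bases before to 20 bases after it, because ATTGG was the 1 sequence searched that all 5 windows hold. Sequences are from RefSeq (GRCr8), 5′ to 3′ on the strand of the gene, with ATTGG, or CCAAT where it lies on the other strand, in capitals. The windows are chr18:56526972-56527041 (+) for Cd74, chr20:4515321-4515390 (+) for RT1-Da, chr20:4576969-4577038 (+) for RT1-Ba, chr20:4604155-4604224 (-) for RT1-Bb and chr3:129549221-129549290 (+) for B2m.
Cd74: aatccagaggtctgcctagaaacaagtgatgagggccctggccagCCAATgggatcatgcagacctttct
RT1-Da: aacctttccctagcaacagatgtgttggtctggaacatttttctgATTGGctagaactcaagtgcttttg
RT1-Ba: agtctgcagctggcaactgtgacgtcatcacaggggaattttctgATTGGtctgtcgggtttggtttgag
RT1-Bb: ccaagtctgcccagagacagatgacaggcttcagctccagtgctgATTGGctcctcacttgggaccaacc
B2m: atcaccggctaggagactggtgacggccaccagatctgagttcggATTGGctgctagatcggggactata

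The capitals begin 49 bases before the annotated start in RT1-Da, 43 in RT1-Ba, 61 in RT1-Bb, 64 in B2m and 189 in Cd74. In the 3 RT1 genes and in B2m the letters are ATTGG in the orientation of the gene, and in Cd74 they are CCAAT. The longer CTGATTGG was not matched in the windows of B2m and Cd74. Against these shared letters, the levels of the 4 class II genes over the 16 rats had pairwise r of 0.25 to 0.56 (0.074 to 0.41 without rat G1_143) and B2m had r of -0.13 to -0.037 with them, none past adjustment, and no relation between sequence and level was tested.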

How the data were processed

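One library per rat was sequenced (10 vehicle, 7 ENZ, grouped by the treatment label). The authors aligned reads to rn5 with STAR 2.4.0a and counted them per gene with featureCounts 1.4.4. Which annotation and strand setting they used is not given in the sources used here. The values the authors deposited are normalized counts, a signal of reads divided by a DESeq2 size factor per rat. From the low values of each rat the worth of 1 read was found, and 100% of values were whole reads within 0.01.

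Groups were compared with limma 3.58.1 (R 4.3.3, trend), after taking log2(normalized count + 1) and keeping genes with a median of at least 5. On this scale the change of low genes is understated against that with a smaller pseudocount (RT1-Da 0.14 with 0.1, 0.13 with 1 and 0.096 with 5), which does not hold against edgeR and DESeq2 for RT1-Da and RT1-Ba. P-values were adjusted by Benjamini-Hochberg over all genes kept. The 5 genes were also tested singly by exact permutation (scipy 1.17.1). edgeR 4.0.16 and DESeq2 1.42.0 were run on the recovered reads, and the 3 tools were tested on simulated data. Rat G1_80 was left out of the main comparison for its depth. The study left out outlier samples found by principal components, which it does not name, and compared 7 rats per group. Its set of rats thus differs from the 16 used here. The study too reported no gene as significant after correction. Alternatives were other pseudocounts, filters and scalings, array weights, leaving out each rat, and a set of 13 rats that comes from an earlier look at these data and was not derived again. Scaling by total reads, correlations without rat G1_143 and the spread beyond counting without each rat were chosen after seeing the data.

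The 5 genes, the lists and the tests were chosen with earlier results of these data known. Genes given values were these 5, Hba2 and the 2 identifiers most like the class II mean. The gene table (GRCr8) matched 0 identifiers, so of 14 lists only the 5 genes and Hba2 were used. The rn5 reference is of the Brown Norway strain, and class II genes differ between strains and resemble each other, so their counts in Fischer-344 rats are uncertain.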

Additional observations from a re-analysis of the deposited data

Results flagged for a closer look

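Dixon's ratio, the distance from an extreme rat to its neighbour over the whole range, was computed for 3 sets of rats and 6 measures. It passed the 95% critical value in 2 of the 12 combinations without rat G1_80, where about 1 in 20 would by chance, and in 5 more through rat G1_80, whose low depth was known. Gene values are log2(normalized count + 1).

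Vehicle rat G1_143 was at 1.67 in RT1-Ba (3 reads), and the nearest of the other vehicle rats without G1_80 was at 3.32. ENZ rat G2_152 was at 3.14 in RT1-Ba (6 reads), and the nearest ENZ rat was at 3.62. The Poisson intervals, which cover counting error only, were 2.87 to 17.03 normalized counts for rat G2_152 and 0.450 to 6.37 for rat G1_143, and the latter overlaps the 5.50 to 13.9 of the next vehicle rat, G1_98.

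The other 5 were vehicle rat G1_80 among all 10 vehicle rats. It was at 0 in Cd74, RT1-Da and RT1-Bb, each with 0 reads, where the next lowest were at 5.70, 3.14 and 2.71. It was at 9.02 in B2m (5 reads, next lowest 10.3) and at 4.52 in log10 reads on genes (next lowest 6.43).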

How the results depend on the processing

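The count of genes past the adjusted threshold was 0 under each alternative. At an unadjusted p under 0.05 it was 324 by limma (46.9% higher with ENZ), and it was 38 with all 17 rats, 33 with all 17 rats scaled by total reads, 625 with no filter and 201 with a median of at least 50. Scaling the 16 rats by total reads gave 347, of which 23.9% were higher. RT1-Da and RT1-Bb kept their direction in 13 of 13 alternatives (0.023 to 0.50 and -0.50 to -0.057) and in 16 of 16 fits without 1 rat (0.024 to 0.23 and -0.54 to -0.29), and a median of at least 50 left out the 3 RT1 genes. Cd74, at -0.028, changed to 0.59 with all 17 rats (0.57 scaled by total reads), to 0.070 with 13 rats and to 0.0077 with array weights, and fits without 1 rat gave -0.088 to 0.066. B2m changed to 0.12 with all 17 rats (0.044 scaled by total reads), and fits without 1 rat gave -0.068 to 0.0024. RT1-Ba, at 0.18, was 0.040 by edgeR, 0.045 by DESeq2, 0.098 with a pseudocount of 5, 0.38 with 13 rats and 0.53 with all 17, and -0.056 to 0.29 in fits without 1 rat. Adjusted p of the 5 genes was 0.786 or higher throughout.

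With all 17 rats the CV was 31.1% for Cd74, 43.4% for RT1-Da, 45.8% for RT1-Bb and 19.8% for B2m, and B2m was at 8.83% when scaled by total reads over 16 rats. Pairs of genes past adjustment numbered 0, and 10 with all 17 rats, where r of B2m was 0.91 with Cd74, 0.84 with RT1-Da, 0.75 with RT1-Ba and 0.79 with RT1-Bb. Within vehicle r of B2m was 0.21 with Cd74, 0.095 with RT1-Da, -0.037 with RT1-Ba and -0.41 with RT1-Bb, and within ENZ -0.57, -0.34, -0.45 and 0.28 in that order. Without the 2 farthest rats it was 0.14 with Cd74 and 0.025 with RT1-Bb, and r of Cd74 and RT1-Ba was -0.076. Where rat G1_80 does not enter, the cause was not tested. No paired analysis was possible because the groups share no rat numbers and the labels do not give the squad in which a rat was maze-tested, so an effect of squad was not tested. The RT1 genes rest on 3 to 79 reads per rat, and how much depth, spread between rats and group size each add to their intervals was not tested.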
